A study of Mus musculus with 58 samples.

Results

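The gene expression changes of 2 myotonic mouse models were set against each other, probe set by probe set, in quadriceps muscle at 3 months of age. The first change is Mbnl1-null minus wild type on the FVB background (5 against 5 male mice, experiment 3, on a single Affymetrix array that holds the probe sets of both arrays of experiment 2). The second is Clcn1-null minus wild type on the BALB background (3 against 3 male mice, experiment 2, each mouse on the array pair 430A and 430B). The null mice carry constitutive knockouts, and per the labels no group received a treatment. The 2 comparisons use 22 of the 58 arrays and 16 of the 34 mice of the series, and share no mouse. All 45037 probe sets on both array systems were considered. Of these, 15442 reached a log2 intensity of 5 (an intensity of 32) on enough arrays of both experiments to be tested in both, 787 were tested in experiment 3 only, 10502 in experiment 2 only, and 18306 in neither. Strain, array type and the gene deleted all differ between the 2 comparisons and cannot be told apart in any difference between them.

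Clcn1 encodes the chloride channel that damps the electrical excitability of the muscle fibre, and its loss gives myotonia, a delayed relaxation caused by repetitive firing. Mbnl1 encodes an RNA-binding protein that switches many muscle transcripts from fetal to adult splicing. In myotonic dystrophy it is bound up by expanded CUG repeat RNA. Without Mbnl1 the Clcn1 transcript itself is mis-spliced, so that both knockouts share a loss of chloride channel function while only the Mbnl1-null mouse has the wider splicing defect. Arrays of this kind read transcript amount, mostly near the 3′ end, and do not read splicing.

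The labelled tissue was borne out by the level of its markers. All 15 of the listed skeletal muscle markers were measured in both experiments. Their mean log2 level per mouse was 15.16 to 15.44 in experiment 3 and 15.30 to 15.82 in experiment 2. The median array intensity was 298.45 to 317.3 on 430A, 22.35 to 27.91 on 430B and 9.56 to 11.62 on the single array of experiment 3. The spread of the changes was wider for Clcn1-null (SD 0.67 log2 units over the 15442 probe sets) than for Mbnl1-null (SD 0.425), and the median standard error (SE) was 0.204 against 0.129. Clcn1-null mouse 3 stood apart, with a Pearson correlation across probe sets of 0.949 and 0.953 with its group mates, against 0.987 between those. The number of arrays limits the precision, most of all in experiment 2. Its count of calls was 1091 of 25944 probe sets (4.21%) with all mice, 2273 without Clcn1-null mouse 3, 35 without wild-type mouse 1 and 40 without wild-type mouse 3. A call is an adjusted p under 0.05 in limma (moderated linear model, two-sided, Benjamini-Hochberg over all probe sets tested), and the spread between mice of a group is the only error it measures.

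The targeted genes went down as labelled. Clcn1 was at log2 levels of 8.89, 9.19, 9.29, 9.38 and 8.83 in Mbnl1-null and 9.94, 10.18, 10.43, 10.11 and 10.45 in FVB wild type. It was at 9.30, 9.54 and 9.39 in Clcn1-null against 10.96, 10.25 and 11.27 in BALB wild type. The groups did not overlap in either experiment, so that the chloride channel transcript was also low in the mouse that lacks the splicing factor. The change was -1.11 (SE 0.14, adjusted p = 0.000405) in Mbnl1-null and -1.42 (SE 0.28, adjusted p = 0.0507) in Clcn1-null, where it missed the threshold. The 2 changes differed by 0.31 (95% interval -0.29 to 0.92). Mbnl1 changed by -0.73 (SE 0.06, adjusted p = 4.83e-05) in Mbnl1-null and by -0.37 (SE 0.12, adjusted p = 0.164) in Clcn1-null. Its levels were 12.90 to 13.20 in the Mbnl1-null mice against 13.76 to 13.88 in wild type, so that a strong signal remained at this probe set. Whether either probe set lies inside the deleted part was not given, and the 2 other Mbnl1 probe sets were under the filter in every group.

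Over the probe sets tested in both, 2511 (16.3%) were called in Mbnl1-null, 1139 higher (7.38%) and 1372 lower (8.88%), and 956 (6.19%) in Clcn1-null, 363 higher (2.35%) and 593 lower (3.84%). Over all 16229 probe sets tested in experiment 3, 7.28% were called higher and 8.92% lower, and over the 25944 of experiment 2, 1.72% and 2.49%. Both knockouts together called 321 (2.08%) in the same direction, 98 higher and 223 lower. These are 12.8% of the Mbnl1-null calls and 33.6% of the Clcn1-null calls. In opposite directions there were 29 (0.188%), of which 19 were higher in Mbnl1-null and lower in Clcn1-null, and 10 the reverse. Whether the 2 changes differ was tested in a fit of all 4 groups, which called 1758 probe sets (11.4%), with the Mbnl1-null change above the Clcn1-null change for 1129 (7.31%) and below it for 629 (4.07%). On that basis 429 (2.78%) were changed in Mbnl1-null only and 453 (2.93%) in Clcn1-null only. A further 1732 were called in Mbnl1-null and 153 in Clcn1-null while the difference was not called, so nothing was shown to be particular to either model for those. The fit of all 4 groups takes 1 spread per probe set for both experiments. With separate spreads, 1232 differences were called, with 324 probe sets in Mbnl1-null only and 453 in Clcn1-null only.

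Across the 15442 probe sets the 2 changes had a Pearson correlation of 0.375 and a Spearman correlation of 0.351, given as a description, since probe sets share arrays and are not independent. The sign was the same for 62.4% of all, for 75.5% of those called in Mbnl1-null and for 79.7% of those called in Clcn1-null. Of the 321 that moved alike, 282 changed more in Clcn1-null, and for 133 the difference in size was itself called. A call needed a larger change in Clcn1-null, where the median SE was 0.204 against 0.129. The Clcn1-null changes were also wider over all probe sets tested in both (SD 0.67 against 0.425). The count of 282 was therefore partly set by how these probe sets were chosen. Without Clcn1-null mouse 3 the counts were 580 alike, 58 opposite, 411 in Mbnl1-null only and 809 in Clcn1-null only. Without wild-type mouse 1 of that experiment they were 23, 0, 383 and 8, and without its wild-type mouse 3 they were 24, 0, 380 and 8. Leaving out wild-type mouse 2 gave 102, 5, 407 and 126. Leaving out Clcn1-null mouse 1 gave 154, 11, 562 and 194, and leaving out Clcn1-null mouse 2 gave 136, 4, 513 and 142. The 3 classes that need a Clcn1-null call were therefore larger without Clcn1-null mouse 3 and smaller without any other single mouse of that experiment. No called change of a gene named here reversed its sign when a mouse was left out. Of the 77 named Clcn1-null changes, 75 kept their call without Clcn1-null mouse 3, and leaving out any other mouse of that experiment ended the call in 245 of 385 refits.

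**Figure D1:**
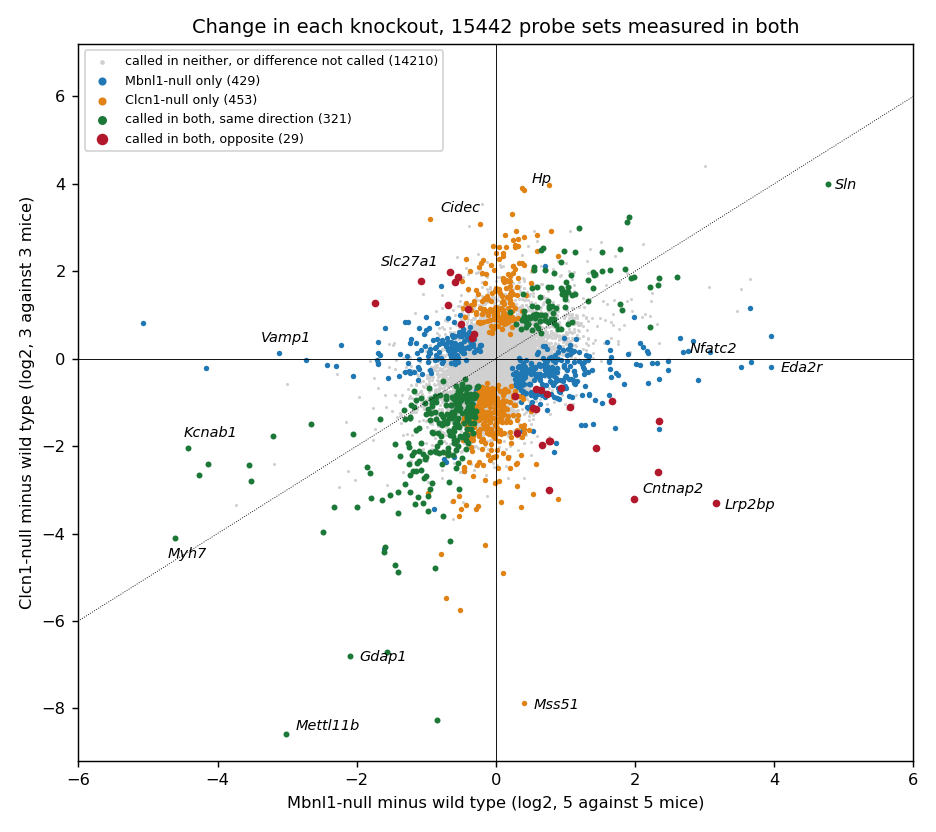
Change in Mbnl1-null (x axis) against change in Clcn1-null (y axis), in log2 units, for the 15442 probe sets measured in both; 1 point is 1 probe set, colour gives its class and the dotted line marks equal changes. Points called in both fall mostly in the lower left, where 223 of the 321 lie, and the 29 called in opposite directions lie in the other 2 quadrants.

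Slow muscle fibres use their own set of contractile proteins, and several transcripts of this set fell in both knockouts, while others did not pass or rose. Myh7, the slow myosin heavy chain, was at 6.17, 9.79, 9.93, 2.09 and 8.71 in the Mbnl1-null mice. Their wild types ran from 11.57 to 12.19. In experiment 2 it was at 8.77, 10.06 and 6.90 in the null mice and 12.48 to 13.03 in wild type. No null mouse reached the level of its wild types in either experiment, and the null mice varied far more than the wild types. The change was -4.61 (SE 1.25, adjusted p = 0.0282) in Mbnl1-null and -4.11 (SE 0.77, adjusted p = 0.0472) in Clcn1-null. The size rests on single mice, since Mbnl1-null mouse 4 was under the floor of 5. The change was -3.30 without it, -5.23 without mouse 2 and -5.26 without mouse 3. In Clcn1-null it was -3.27 without mouse 3 and -4.85 without mouse 2. The difference between them was -0.51 (95% interval -4.41 to 3.40). That interval is too wide to show that the size was alike.

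The thin filament genes of slow fibres fell with it. The slow troponins are Tnnc1 (calcium-binding subunit), Tnni1 (inhibitory subunit) and Tnnt1 (tropomyosin-binding subunit, named outside the naming rule), and Tpm3 encodes a tropomyosin used in slow fibres. Tnnc1 changed by -3.55 (SE 0.62) in Mbnl1-null and -2.44 (SE 0.33) in Clcn1-null. Tnni1 changed by -2.33 (SE 0.41) and -3.40 (SE 0.65), Tnnt1 by -3.20 (SE 0.59) and -1.76 (SE 0.26), and Tpm3 by -3.52 (SE 0.53) and -2.79 (SE 0.23). All 8 of these changes were called, with adjusted p from 0.0014 to 0.0485, and none of the 4 differences between knockouts was called, with adjusted p from 0.304 to 0.585. Mbnl1-null mice 4 and 1 had the lowest and second lowest level of Myh7 and of each of these 4 genes, and Clcn1-null mouse 2 had the highest of its group for all 5. Without Mbnl1-null mouse 4 the change of Tnnt1 was -2.61, and that of Tnni1 in Clcn1-null was -2.71 without mouse 3 and -4.05 without mouse 2. Of the other slow contractile genes on the list, named after their values were seen, the light chain Myl2 fell in Mbnl1-null (-3.19, adjusted p = 0.0244) and changed by -2.42 in Clcn1-null (adjusted p = 0.0581). The light chain Myl3 passed in neither (-1.05 and -1.41). Mybpc1, the slow myosin-binding protein C, rose in Mbnl1-null (0.42, adjusted p = 0.0195) and changed by 0.85 in Clcn1-null (adjusted p = 0.0588). The Tpm3 probe set with the highest level, which stands for the gene in the list, passed in neither (0.10 and -0.21). Atp2a2, the calcium pump of slow and cardiac muscle, fell by 1.02 in Mbnl1-null (adjusted p = 0.011) and by 2.29 in Clcn1-null (adjusted p = 0.0038). Its fall was larger in Clcn1-null (difference 1.27, adjusted p = 0.0223), a difference that was not called without BALB wild-type mouse 2 (1.19) or 3 (1.23).

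Of the 18 measured genes on the slow fibre list, 5 rose and 6 fell in Mbnl1-null, and 7 rose and 5 fell in Clcn1-null. The background over all 8884 genes represented by 1 probe set was 7.94% higher and 8.15% lower in Mbnl1-null, and 2.43% higher and 3.98% lower in Clcn1-null. Among the 18, 8 moved alike and none in opposite directions. The list holds members that rose, so its median change was 0.32 in Mbnl1-null and 0.25 in Clcn1-null, against -0.01 and -0.08 over all genes. Sln, a small peptide that holds back the sarcoplasmic calcium pump, rose the most. It was at 14.37, 11.01, 10.90, 10.89 and 11.02 in the Mbnl1-null mice against 5.44 to 7.94 in wild type, and at 13.33, 12.61 and 12.44 in the Clcn1-null mice against 8.37 to 9.48. The groups were far apart in both experiments. The increase was 4.77 (SE 0.68, adjusted p = 0.00104), or 27.3-fold, in Mbnl1-null (4.09 without mouse 1) and 4.00 (SE 0.38, adjusted p = 0.00882) in Clcn1-null. In whole muscle, fewer slow fibres and less of these transcripts per fibre cannot be told apart. The Mbnl1-null call of Myh7 was lost without Mbnl1-null mouse 1 (-4.32) and without any 1 of the wild types. Under a median shift of the arrays the Clcn1-null calls of Myh7 (-4.14) and Tnni1 (-3.43) were lost too.

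**Figure D2:**
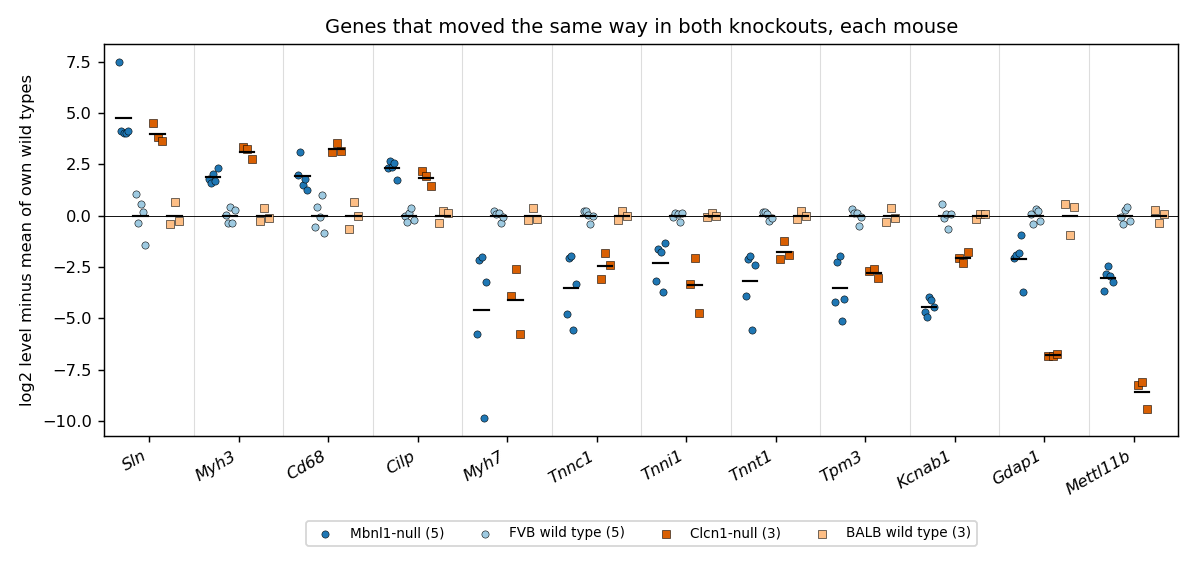
Log2 level of each mouse minus the mean of its own wild types (y axis) for 12 genes that moved the same way in both knockouts; circles are experiment 3, squares experiment 2, and black bars are group means. The slow fibre genes from Myh7 to Tpm3 are low in every null mouse of both models, and Gdap1 and Mettl11b are lower in Clcn1-null than in Mbnl1-null.

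Since these slow fibre genes moved together, the sequence before their starts is shown for the 3 with a match to a searched motif, 250 bases up to the start, from RefSeq (GRCm38.p6). Tnni1 is on the plus strand at chr1:135799171-135799420, Tnnt1 on the minus strand at chr7:4515976-4516225 and Tpm3 on the plus strand at chr3:90072401-90072650. Capitals mark a match to any of the motifs searched on both strands, which were the E-boxes CAGCTG and CACGTG, a MEF2-type motif, an NFAT core GGAAAA and a TATA box TATAAA.
Tnni1: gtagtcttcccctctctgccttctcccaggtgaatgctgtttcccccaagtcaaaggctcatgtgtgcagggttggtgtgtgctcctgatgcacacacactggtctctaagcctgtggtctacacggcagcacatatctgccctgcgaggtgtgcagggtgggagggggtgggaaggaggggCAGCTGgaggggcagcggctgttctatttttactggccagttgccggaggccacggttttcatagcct
Tnnt1: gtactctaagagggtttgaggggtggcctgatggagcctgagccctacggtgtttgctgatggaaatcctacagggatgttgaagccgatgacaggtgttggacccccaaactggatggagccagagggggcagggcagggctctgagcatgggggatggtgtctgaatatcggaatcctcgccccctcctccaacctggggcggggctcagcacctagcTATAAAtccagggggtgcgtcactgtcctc
Tpm3: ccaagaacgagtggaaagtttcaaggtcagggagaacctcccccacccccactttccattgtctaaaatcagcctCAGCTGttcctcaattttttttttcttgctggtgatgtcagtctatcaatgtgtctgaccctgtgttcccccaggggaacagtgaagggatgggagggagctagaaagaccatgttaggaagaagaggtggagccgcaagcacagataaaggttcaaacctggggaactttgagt
Tnni1 and Tpm3 hold CAGCTG, first base at -68 and -175 from the start, and Tnnt1 holds TATAAA at -30. The windows of Myh7 and Tnnc1 hold none of these letters. Where a gene has several windows the one listed first was used.

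Over windows from 250 bases before to 50 after the start, 134 of the 168 named genes that fell in both knockouts and 60 of the 78 that rose in both had a window. CAGCTG was in 17.2% of those that fell and 26.7% of those that rose, against 16.1% of all 27025 genes with a window. CACGTG was in 8.96% and 15.0%, against 7.24%. The MEF2-type motif was in 5.97% and 1.67%, against 3.7%. The NFAT core was in 19.4% and 23.3%, against 23.6%, and the TATA box in 8.96% and 15.0%, against 14.2%. These shares are descriptions of letters in a window.

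Genes of other kinds also fell in both. Kcnab1, an auxiliary subunit of voltage-gated potassium channels, was at 4.86 to 5.86 in the Mbnl1-null mice against 9.16 to 10.38, and at 8.66 to 9.19 in the Clcn1-null mice against 10.80 to 11.08. It fell by 4.43 (SE 0.24) in Mbnl1-null and by 2.05 (SE 0.18) in Clcn1-null, and the fall was larger in Mbnl1-null (difference -2.38, adjusted p = 0.00062). Kcnab1 lies within 10 Mb of Mbnl1 in the RefSeq annotation (GRCm38.p6). Gdap1, a mitochondrial outer membrane protein of the glutathione transferase fold, and Mettl11b, an N-terminal methyltransferase, showed the reverse order of size. Gdap1 was at 5.11, 5.12 and 5.19 in Clcn1-null against 12.50, 10.98 and 12.34, and at 5.44 to 8.21 in Mbnl1-null against 8.75 to 9.49. It fell by 6.80 (SE 0.41) in Clcn1-null and by 2.09 (SE 0.40) in Mbnl1-null (difference 4.71, adjusted p = 0.000322). The Clcn1-null levels were near the floor of 5, so the size of that fall is uncertain. Another Gdap1 probe set, tested in experiment 2 only, was not called (-0.71, adjusted p = 0.279). Others, tested in experiment 3 only, fell in Mbnl1-null (-1.51 and -2.47). Mettl11b fell by 3.01 (SE 0.23) in Mbnl1-null and was under an intensity of 32 in all 3 Clcn1-null mice, at least 269.0-fold lower than the wild-type mean taken against 32.

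Neto2 and Cdh4 were named after their values were seen, for the size of their change. Neto2, an auxiliary subunit of glutamate receptors, fell by 0.85 (SE 0.24) in Mbnl1-null, and was under an intensity of 32 in all Clcn1-null mice, at least 58.7-fold below wild type. Cdh4, a cell adhesion cadherin, fell by 1.57 (SE 0.46) and by 6.71 (SE 0.94). For both the difference was called (adjusted p = 1.84e-07 for Neto2 and 0.00298 for Cdh4). Both genes were picked by the values tested, so these p-values add no separate support. For Neto2 the test used Clcn1-null levels of 3.32, 2.52 and 1.98, all under the floor of 5. In Mbnl1-null the groups of both genes overlapped. The Mbnl1-null calls were lost under a median shift and without any of 7 single mice for Neto2 (-0.71 to -0.91) and 8 for Cdh4 (-1.23 to -1.69). For Cdh4, Clcn1-null mice 2 and 3 were under the floor of 5 (4.22 and 4.24), so the size of the fall is uncertain, and it was -7.79 without mouse 1. A second Cdh4 probe set passed in neither (-0.48 and 0.28).

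Metabolic and signalling genes that fell in both included Slc38a4, an amino acid transporter, Smox, the spermine oxidase, and Ak4, a mitochondrial adenylate kinase. Slc38a4 fell by 2.48 (SE 0.32) in Mbnl1-null and 3.96 (SE 0.15) in Clcn1-null. Smox fell by 1.79 (SE 0.33) and 3.18 (SE 0.14), and Ak4 changed by -1.85 (SE 0.25) and -2.47 (SE 0.21). All of these null and wild-type groups were apart from each other. Tiam1, an activator of the small GTPase Rac, fell by 2.00 (SE 0.25) and 3.39 (SE 0.39). Hmga2-ps1, a pseudogene whose probe set may also measure Hmga2, fell by 4.26 (SE 0.53) and 2.65 (SE 0.29). None of these 5 differences was called at the probe sets given, with adjusted p from 0.0516 to 0.324. At a second probe set the fall was larger in Clcn1-null for Slc38a4 (-1.13 against -2.38, adjusted p of the difference = 0.0133) and for Ak4 (-1.59 against -4.30, adjusted p of the difference = 0.0154). Pdlim7, a Z-disc adaptor, fell more in Mbnl1-null (-2.66 against -1.49, adjusted p of the difference = 0.00263), and this difference was lost when all arrays were put on 1 joint distribution (-0.76). A second Pdlim7 probe set had the reverse order, at -1.33 and -2.59, with the difference not called (adjusted p = 0.147). At 1 probe set Igfbp5, which binds insulin-like growth factors, fell more in Clcn1-null (-3.05 against -1.41, adjusted p of the difference = 0.0257). This difference was lost with separate spreads for the experiments (1.65) and without Clcn1-null mouse 1 (1.35) or 2 (1.41) or wild-type mouse 1 (1.52) or 3 (1.69). A second Igfbp5 probe set fell more in Mbnl1-null (-1.70 against -0.13, adjusted p of the difference = 0.00779), so the order depends on the probe set. Rbfox1, a splicing regulator of muscle and brain, fell by 0.75 and 1.44 (adjusted p of the difference = 0.0698).

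Some transcripts of immature fibres, of phagocytes and of matrix were among those that rose in both, while others of these kinds did not. Myh3, the embryonic myosin heavy chain, was at 8.57, 8.33, 8.80, 8.45 and 9.09 in the Mbnl1-null mice against 6.38 to 7.19 in wild type, and at 13.94, 13.82 and 13.36 in the Clcn1-null mice against 10.32 to 10.93. All null mice were above all wild types. It rose 3.7-fold in Mbnl1-null (1.89, SE 0.19) and 8.73-fold in Clcn1-null (3.13, SE 0.23), and the rise was larger in Clcn1-null (difference -1.24, adjusted p = 0.0205). That difference was lost without BALB wild-type mouse 1 (-1.11) or 3 (-1.19). Igf2, a growth factor of fetal muscle, rose by 0.79 (adjusted p = 0.0193) and 1.65 (adjusted p = 0.028), and its Mbnl1-null call was lost without wild-type mouse 2 (0.72). Of the 22 measured genes of the embryonic and myogenic list, 8 rose and 2 fell in Mbnl1-null, against 7.94% and 8.15% of all genes. In Clcn1-null 3 rose and 1 fell, against 2.43% and 3.98%.

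Cd68, a lysosomal protein of macrophages, rose by 1.91 (SE 0.40, adjusted p = 0.00771) in Mbnl1-null and 3.25 (SE 0.34, adjusted p = 0.0115) in Clcn1-null. Lgals3, a galectin of macrophages and regenerating muscle, rose by 1.79 (SE 0.26) and 2.51 (SE 0.36). Beside this, 3 of 18 measured macrophage and leukocyte markers rose and 1 fell in Mbnl1-null, against 7.94% and 8.15% of all genes. The 1 that fell was Cd163, a macrophage receptor (-1.10, SE 0.30, adjusted p = 0.0307). It changed by 0.70 in Clcn1-null (SE 0.25, adjusted p = 0.218), and the difference was called (-1.79, adjusted p = 0.0205). Cd68 alone was called in Clcn1-null, where 2.43% of all genes rose and 3.98% fell. The mean log2 level of the list's genes was 8.58 to 9.51 in Mbnl1-null against 8.26 to 8.88 in wild type. In Clcn1-null it was 10.20 to 10.35 against 9.79 to 10.29, so the groups overlapped in both experiments. The part of these cells in either result was not tested. Cilp, a matrix protein of cartilage and fibroblasts, rose by 2.34 (SE 0.18) and 1.84 (SE 0.25). Postn, a matrix protein of repair, rose by 1.39 (SE 0.21) and 1.61 (SE 0.18), and Prg4, the lubricin of joints and tendon sheaths, by 1.19 (SE 0.21) and 2.98 (SE 0.30). Prg4 rose more in Clcn1-null (adjusted p of the difference = 0.00561). Of 26 measured collagen and matrix genes, 8 rose and none fell in Mbnl1-null, against 7.94% and 8.15% of all genes, and the list's median change was 0.43. In Clcn1-null 2 rose and none fell, against 2.43% and 3.98%, and the median change was 0.46. Fibroblast and tendon markers, a list that holds Cilp and Prg4, had mean log2 levels of 10.94 to 11.32 in Mbnl1-null against 10.51 to 10.94 in wild type. In Clcn1-null the markers were at 11.34 to 11.75 against 11.14 to 11.39. Their part in these increases was not tested.

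The other named genes that rose in both have mixed roles. Mustn1, a nuclear protein of regenerating muscle, rose by 2.61 (SE 0.22) in Mbnl1-null and 1.86 (SE 0.36) in Clcn1-null. Hspb7, a small heat shock protein of striated muscle, rose by 1.98 (SE 0.35) and 1.88 (SE 0.26), and Lmcd1, a LIM-domain protein, by 1.64 (SE 0.35) and 2.03 (SE 0.19). Meg3, an imprinted noncoding RNA, rose by 1.95 (SE 0.27) and 1.84 (SE 0.26), while another of its probe sets passed in neither (0.55 and 0.82) and another in Clcn1-null only (0.31 and 1.45). Gys2, the liver form of glycogen synthase, rose by 1.86 (SE 0.46) and 2.05 (SE 0.26), although 1 Mbnl1-null mouse lay within the wild-type range, as did 1 for Lmcd1. Most FVB wild types were under the floor of 5 for Gys2 (3.95 to 5.19), so the size of its Mbnl1-null rise is uncertain. Pla2g12a, a secreted phospholipase, rose by 1.52 (SE 0.22) and 2.00 (SE 0.23), and Camta1, a calmodulin-binding transcription activator, by 1.52 (SE 0.13) and 2.45 (SE 0.39), with a second probe set at 0.00 and 0.04. None of these 7 differences was called. The Gys2 call in Mbnl1-null was lost without wild-type mouse 2 (1.73). The Clcn1-null calls of Mustn1 (1.83), Cilp (1.72) and Camta1 (2.34) were lost under a median shift. Without Clcn1-null mouse 3 the difference for Camta1 was called (adjusted p = 0.00655).

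A separate group changed in Mbnl1-null and not in Clcn1-null, with the difference called. Nfatc2, a calcineurin-dependent transcription factor, was at 9.12, 8.65, 9.18, 9.13 and 8.41 in the Mbnl1-null mice against 5.51, 5.10, 5.14, 5.15 and 5.23 in wild type. In experiment 2 it was at 10.03, 9.78 and 8.98 in the null mice and 9.66 to 9.68 in wild type. Every Mbnl1-null mouse was far above its wild types, and the Clcn1-null mice lay on both sides of theirs. It rose 12.7-fold in Mbnl1-null (3.67, SE 0.16, adjusted p = 6.01e-07) against -0.08 (SE 0.28) in Clcn1-null, a difference of 3.75 (95% interval 3.09 to 4.41). Of 2 other Nfatc2 probe sets, both rose in Mbnl1-null, and the difference was called for 1 (1.70) and not for the other (0.54, adjusted p = 0.186). Eda2r, a death-domain receptor of the ectodysplasin system and a p53 target, was at 9.73 to 10.92 in Mbnl1-null against 5.67 to 7.82. It rose by 3.96 (SE 0.38) against -0.19 (SE 0.60), a difference of 4.16, or 3.54 without Clcn1-null mouse 3. Cdkn1a, the p53-induced inhibitor of the cell cycle, rose by 2.19 (SE 0.34) against 0.13 (SE 0.37), with the difference called (adjusted p = 0.0245) but not without BALB wild-type mouse 2 (1.85) or 3 (1.98).

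Rrad, a small G protein that restrains calcium channels, was under an intensity of 32 in all FVB wild types and rose at least 5.07-fold in Mbnl1-null. Its change in Clcn1-null was 0.53 (SE 0.35). Myl4, the embryonic and atrial myosin light chain, rose by 3.52 (SE 0.37) against -0.18 (SE 0.27), in contrast with the embryonic myosin heavy chain, which rose in both. Most FVB wild types were under the floor of 5 for Myl4 (4.50 to 6.08), so the size of its Mbnl1-null rise is uncertain. Atp1b4, a muscle protein of the sodium pump beta family, rose by 3.65 (SE 0.34) against 1.16 (SE 0.32, adjusted p = 0.123), and the difference of 2.49 was called (adjusted p = 0.00668). Without Clcn1-null mouse 3 the Clcn1-null change of Atp1b4 was 1.47 and was called (adjusted p = 0.0239). Grb14, an adaptor that inhibits insulin receptor signalling, rose by 0.83 (SE 0.18) against -2.14 (SE 0.68, adjusted p = 0.166), and the difference of 2.97 was lost with separate spreads and was 2.32 without Clcn1-null mouse 2. Wdyhv1, an N-terminal glutamine amidase, rose by 2.35 (SE 0.18). Its Clcn1-null value of -1.62 came from mouse 3, at 3.49 against 7.80 and 8.30 in the others, and was -0.10 without it, with the difference still called (adjusted p = 0.000237). Its difference was 3.97 with all mice, where it was not called with separate spreads, and 2.45 to 4.86 when a single Clcn1-null mouse was left out.

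Of 15 measured genes of the neuromuscular junction and denervation, 4 rose in Mbnl1-null, against 7.94% of all genes, and none was called in Clcn1-null, against 2.43% higher and 3.98% lower. Of those 4, 3 also had the difference called. Without Clcn1-null mouse 3, 1 rose and 2 fell in Clcn1-null. Ncam1, an adhesion molecule raised in denervated fibres, rose by 1.60 (SE 0.19) against 0.39 (SE 0.19), with the difference called (adjusted p = 0.0188) but not without BALB wild-type mouse 1 (1.08). Of 14 measured interferon genes, 6 rose in Mbnl1-null and none was called in Clcn1-null, against the same shares, and 3 differences were called. Ifih1, a sensor of double-stranded RNA, rose by 1.34 (SE 0.23) against 0.07 (SE 0.15), and Iigp1, an interferon-inducible GTPase, by 1.05 (SE 0.19) against -0.47 (SE 0.21). Gbp3, a guanylate-binding protein, was under 32 in all FVB wild types and rose at least 2.57-fold, against a Clcn1-null change of -1.58 (SE 0.55, adjusted p = 0.199), a difference of 3.30, or 2.68 without Clcn1-null mouse 3. The difference for Ifih1 was lost under a median shift (1.31) and without BALB wild-type mouse 2 (1.17) or 3 (1.29).

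Decreases limited to Mbnl1-null by the same test included Vamp1, a vesicle fusion protein. It was at 4.71 to 5.78 in the null mice against 8.25 to 8.83 in wild type. In experiment 2 it was at 10.99 to 11.45, and the wild types lay inside that range. It fell 8.64-fold in Mbnl1-null (-3.11, SE 0.19) and changed by 0.13 (SE 0.18) in Clcn1-null, where the groups overlapped. Nudt6, a nudix hydrolase, changed by -2.73 (SE 0.37) against -0.04 (SE 0.19), and Zdhhc18, a palmitoyltransferase, by -2.22 (SE 0.23) against 0.31 (SE 0.34). Fhod1, an actin-organising formin on the list of transcripts spliced by Mbnl1, changed by -1.66 (SE 0.12) against 0.09 (SE 0.16). Nrip1, a corepressor of oxidative metabolism, and G0s2, an inhibitor of fat breakdown, fell by 0.79 and 1.59 in Mbnl1-null. Their Clcn1-null changes were 1.67 (adjusted p = 0.231) and 0.70 (adjusted p = 0.35). The difference was lost with separate spreads for Nrip1 (-2.46, or -3.14 without Clcn1-null mouse 1) and without BALB wild-type mouse 1 (-2.19) or 2 (-2.17) for G0s2. For Ccdc146, a coiled-coil protein, and Tenm3, a teneurin, this class is a matter of the threshold. They fell by 1.60 and 0.89 in Mbnl1-null and had larger Clcn1-null changes, -4.36 and -3.44, which missed the threshold (adjusted p = 0.0678 and 0.0503) and passed it without Clcn1-null mouse 3 (adjusted p = 0.00572 and 0.00834). Their differences were 2.76 for Ccdc146 and 2.55 for Tenm3, and 1.62 and 1.76 without that mouse. Both were lost with separate spreads, and that of Ccdc146 also without any single BALB wild type (2.62 to 2.83). A second Tenm3 probe set passed in neither (-0.31 and -0.72). The Mbnl1-null call of Tenm3 was lost under a median shift (-0.88) and without any of 7 single mice (-0.70 to -0.93).

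**Figure D3:**
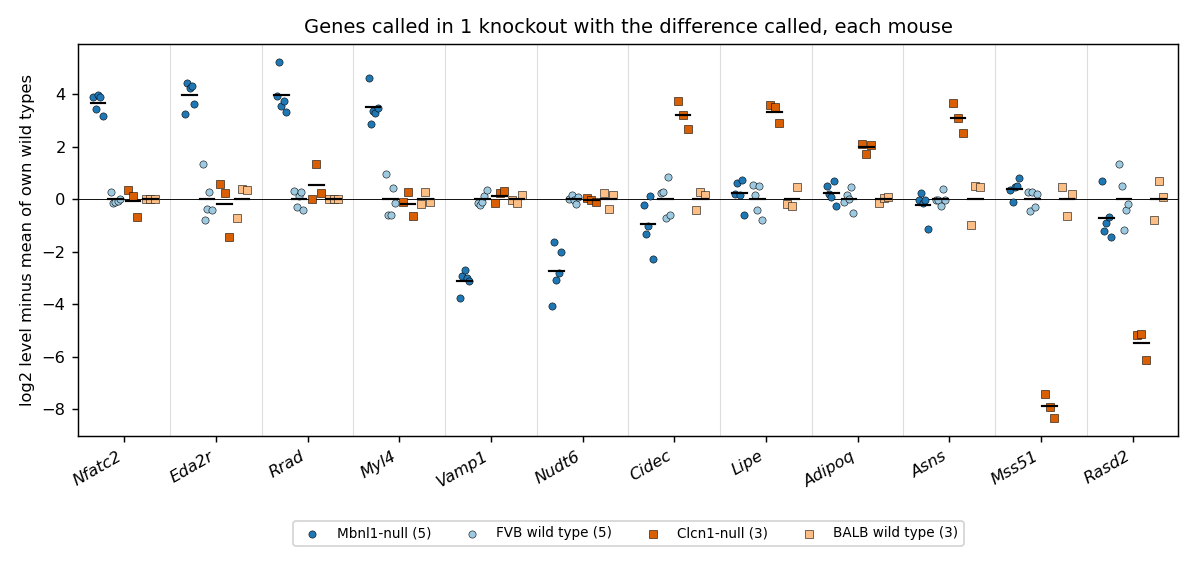
Log2 level of each mouse minus the mean of its own wild types (y axis) for 12 genes called in 1 knockout with the difference between knockouts called; circles are experiment 3, squares experiment 2, and black bars are group means. The first 6 genes depart from 0 in the 5 Mbnl1-null mice and the last 6 in the 3 Clcn1-null mice.

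Some genes of fat cells and lipid storage rose in Clcn1-null and not in Mbnl1-null, most of them with the difference called. Cidec, a lipid droplet protein, was at 12.24, 11.70 and 11.20 in Clcn1-null against 8.10, 8.78 and 8.67 in BALB wild type. In experiment 3 it was at 5.18 to 7.57 in the null mice and 6.75 to 8.29 in wild type. The groups were apart in experiment 2 only. It rose 9.19-fold in Clcn1-null (3.20, SE 0.32, adjusted p = 0.01) against -0.95 (SE 0.44, adjusted p = 0.168) in Mbnl1-null, a difference of -4.15 (95% interval -5.54 to -2.75). Lipe, the hormone-sensitive lipase, rose by 3.32 (SE 0.27) against 0.23 (SE 0.31). Adipoq, the fat cell hormone adiponectin, was at 15.09, 14.71 and 15.06 in Clcn1-null against 12.85 to 13.07, and rose 3.93-fold (1.97, SE 0.14) against 0.25 (SE 0.20). Cebpa, a transcription factor of fat cells, rose by 2.58 (SE 0.25) in Clcn1-null against 0.46 (SE 0.56), and its difference was not called (adjusted p = 0.109).

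Of 17 measured adipocyte and lipid synthesis markers, 7 rose and none fell in Clcn1-null, against 2.43% and 3.98% of all genes. In Mbnl1-null none rose and 1 fell, against 7.94% and 8.15%. Of the 17, 6 were changed in Clcn1-null only, against 269 of all 8884 genes. The median change was 1.79 in Clcn1-null and 0.01 in Mbnl1-null. The mean log2 level of the list's genes was 12.26 to 12.53 in the Clcn1-null mice against 10.30 to 11.11 in the BALB wild types. In experiment 3 it was 8.17 to 9.65 in the Mbnl1-null mice against 8.62 to 9.90 in the FVB wild types. Fat tissue in the dissected muscle and lipid genes of the fibre itself cannot be told apart in these arrays, and the part of fat tissue in the other Clcn1-null increases was not tested. Car3, a carbonic anhydrase of slow muscle and fat cells, rose by 2.27 (SE 0.29) in Clcn1-null against -0.43 (SE 0.23) at a probe set near the floor of 5 in experiment 3. Another Car3 probe set was called in Mbnl1-null (-0.21, adjusted p = 0.022) and not in Clcn1-null (0.31, adjusted p = 0.173), so its class depends on the probe set.

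Further genes rose in Clcn1-null only. Asns, the asparagine synthetase and a target of the amino acid response, was at 12.53, 11.96 and 11.41 against 7.91 to 9.40 and rose by 3.09 (SE 0.49), while Mbnl1-null changed by -0.23 (SE 0.23). Hp, the haemoglobin-binding acute phase protein that fat cells also make, rose by 3.90 (SE 0.60) against 0.38 (SE 0.66). Its difference (adjusted p = 0.0372) was lost under a median shift (-3.48) and without any of 5 single mice of experiment 3 (-3.17 to -3.51) or 4 of experiment 2 (-3.03 to -3.69). Sh2b2, an adaptor of insulin signalling, rose by 3.85 (SE 0.44) and Hacd2, an enzyme of very long chain fatty acid synthesis, by 3.97 (SE 0.31). In Mbnl1-null they changed by 0.41 (SE 0.24) and 0.77 (SE 0.27), which did not pass. Foxo1, a transcription factor of fasting and atrophy, rose by 1.58 (SE 0.23) against -0.28 (SE 0.29), and Idh2, the mitochondrial isocitrate dehydrogenase, by 1.36 (SE 0.17) against -0.13 (SE 0.25). Of 2 other Foxo1 probe sets, 1 rose in Clcn1-null with the difference not called (adjusted p = 0.052), and 1 was not called in Clcn1-null (1.17, adjusted p = 0.0509). The difference for Idh2 was lost without BALB wild-type mouse 3 (-1.38). Fam107a, an actin-associated stress gene, rose by 2.83 (SE 0.48) against 0.13 (SE 0.28), and its Clcn1-null call was lost under a median shift (2.72). A second Fam107a probe set rose in Clcn1-null too (2.69), with the difference not called (adjusted p = 0.0892).

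The largest decrease with no counterpart in Mbnl1-null was that of Mss51, a muscle protein linked to mitochondrial respiration. It was at 7.27, 6.77 and 6.35 in Clcn1-null against 15.14, 14.04 and 14.86 in BALB wild type. In experiment 3 it was at 13.01 to 13.90 in the null mice and 12.67 to 13.38 in wild type. It fell 236.0-fold in Clcn1-null (-7.88, SE 0.36, adjusted p = 0.00193) against a change of 0.41 (SE 0.18, adjusted p = 0.151) in Mbnl1-null, a difference of 8.29 (95% interval 7.49 to 9.08). Rasd2, a Ras-related GTPase, changed by -5.48 (SE 0.45) against -0.71 (SE 0.48), although a second Rasd2 probe set passed in neither model (-0.37 and -0.66). Its Clcn1-null levels of 5.18, 5.21 and 4.25 were near or under the floor of 5, so the size of that fall is uncertain. Smarca1, a chromatin remodeller, changed by -5.74 (SE 1.07) against -0.51 (SE 0.36). Smarca1 was at 7.57 in Clcn1-null mouse 1 and 3.80 and 3.57 in the others, which are under the floor of 5. The size of its fall is therefore uncertain too. Its call was lost without mouse 3 (-5.04, adjusted p = 0.0597), without mouse 2 (-5.15), without any single BALB wild type and under a median shift (-5.77). Its change was -7.04 without mouse 1, where the call was kept.

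Others in this class were Junos, Ddah1, Pkp2, Rps6kc1 and Dkk3, with Clcn1-null changes from -4.90 to -3.20. Ddah1 breaks down inhibitors of nitric oxide synthesis, Pkp2 is a desmosome protein and Dkk3 a secreted glycoprotein of the dickkopf family. Their Mbnl1-null changes ran from -0.79 to 0.89 and did not pass. The Clcn1-null call of Pkp2 was lost under a median shift (-3.24) and without any single mouse of that experiment except Clcn1-null mouse 3, and the change was -2.60 without mouse 2. Junos was at 7.11, 4.30 and 4.32 in Clcn1-null, with mice 2 and 3 under the floor of 5, so the size of its fall is uncertain. Its change was -5.84 without Clcn1-null mouse 1, and its Clcn1-null call was lost without a filter on low values. A second Dkk3 probe set was called in Mbnl1-null as well (-0.88, adjusted p = 0.0479), so that Dkk3 counts as alike by that probe set, with a larger fall in Clcn1-null (-4.80). The fast fibre list had 22 measured genes, of which 2 rose and 4 fell in Clcn1-null, against 2.43% and 3.98% of all genes. In Mbnl1-null 1 rose and 1 fell, against 7.94% and 8.15%. The median change was -0.12 in Clcn1-null and -0.08 in Mbnl1-null, and most members were not called. Actn3, the alpha-actinin of fast fibres, changed by -1.92 (SE 0.33) in Clcn1-null against -0.15 (SE 0.09). Actn2, the alpha-actinin of all fibres, rose by 1.61 (SE 0.10) in Clcn1-null and 0.52 (SE 0.14) in Mbnl1-null. Without any 1 of 8 mice of experiment 3 the Mbnl1-null call of Actn2 was lost (0.44 to 0.52). Phka1, a regulatory subunit of phosphorylase kinase, changed by -1.81 (SE 0.16) against -0.38 (SE 0.12). A second Phka1 probe set was called in both (-1.86, and -0.43 with adjusted p = 0.041), which makes it alike there, with a larger fall in Clcn1-null.

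Calcium handling genes were lower in Clcn1-null relative to Mbnl1-null wherever the difference was called. Of the 38 measured genes of the list, 5 rose and 6 fell in Mbnl1-null, against 7.94% and 8.15% of all genes. In Clcn1-null 2 rose and 8 fell, against 2.43% and 3.98%. The Mbnl1-null change was above the Clcn1-null change for 15 and below it for none, against 7.9% and 4.02% of all genes. The median change was 0.00 in Mbnl1-null and -0.48 in Clcn1-null. In the same Clcn1-null mice the mean log2 level of the muscle defining markers was lower, at 15.30 to 15.65 against 15.72 to 15.82, with no overlap. Of the 15 muscle markers, 2 fell, against 3.98% of all genes. The adipocyte markers were higher in these mice, as given above. In experiment 3 the muscle markers overlapped (15.16 to 15.44 against 15.25 to 15.43). The part of these shifts in the calcium handling values was not tested. Cacna1s, the voltage sensor of the calcium release unit, was at 12.76, 12.56 and 12.54 in Clcn1-null against 13.71 to 13.91 and changed by -1.22 (SE 0.12), against -0.02 (SE 0.13) in Mbnl1-null. Casq1, the calcium store protein of fast fibres, fell 2.01-fold in Clcn1-null (SE 0.12 on the log2 scale) and changed by -0.09 (SE 0.08) in Mbnl1-null. Camk2b, a calcium-dependent kinase, rose in Mbnl1-null (1.14, SE 0.09) and changed by -0.38 (SE 0.22) in Clcn1-null. Atp1b2, a sodium pump subunit, changed by -2.28 (SE 0.27) in Clcn1-null against 0.17 (SE 0.08), and a second probe set passed in neither (-0.37 and 0.23).

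Few genes were called in both with opposite signs, and those named here also passed the test of the difference. Lrp2bp, a protein that binds the receptor megalin, was at 11.27, 10.47, 10.74, 11.03 and 10.47 in the Mbnl1-null mice against 7.95, 7.14, 7.91, 8.26 and 6.93 in wild type. It was at 9.87, 8.34 and 8.36 in the Clcn1-null mice against 12.14, 12.27 and 12.09. The null mice were all above wild type in the first model and all below it in the other. It rose 8.91-fold in Mbnl1-null (3.16, SE 0.26, adjusted p = 3.79e-05) and fell 9.93-fold in Clcn1-null (-3.31, SE 0.43, adjusted p = 0.0182), a difference of 6.47 (95% interval 5.42 to 7.52). Another Lrp2bp probe set, tested in experiment 2 only, was not called in Clcn1-null (-0.16, adjusted p = 0.771). Cntnap2, an adhesion protein that clusters potassium channels, rose by 1.98 (SE 0.30) and fell by 3.20 (SE 0.45). Other Cntnap2 probe sets, tested in experiment 2 only, were not called in Clcn1-null (-0.54 and 0.10). Cntnap2 lies within 10 Mb of Clcn1.

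Mybph, a myosin-binding protein, rose by 1.44 (SE 0.19) in Mbnl1-null and fell by 2.05 (SE 0.29) in Clcn1-null. Kcnc4, a fast potassium channel, rose by 0.78 (SE 0.13) and fell by 1.88 (SE 0.17), where a second probe set passed in Mbnl1-null only (0.58 and -0.41). Stau2, an RNA transport protein, rose by 1.06 (SE 0.19) and fell by 1.10 (SE 0.16). Otub2, a deubiquitinase, rose by 2.33 (SE 0.57) and fell by 2.59 (SE 0.30), but FVB wild-type mouse 1, at 8.41, was above all Mbnl1-null mice (7.84 to 8.39), and without it the rise was 2.98. Another Otub2 probe set, tested in experiment 3 only, was not called in Mbnl1-null (0.89, adjusted p = 0.0758). Tbc1d1, a regulator of glucose transporter traffic, rose by 1.67 (SE 0.39) and fell by 0.97 (SE 0.16), and Mbnl1-null mouse 1 lay within the wild-type range. Rtp4, an interferon-induced chaperone of receptors, rose by 2.35 (SE 0.37) and fell by 1.42 (SE 0.21). Another Rtp4 probe set, tested in experiment 2 only, was not called in Clcn1-null (0.04, adjusted p = 0.87). Cacng1, the gamma subunit of the muscle calcium channel, named outside the rule, rose by 0.93 (SE 0.12) and fell by 0.67 (SE 0.12). Its Clcn1-null call was lost under quantile normalisation (-0.60).

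In the reverse direction, Evc, a protein of the primary cilium, fell by 1.73 (SE 0.24) in Mbnl1-null and rose by 1.27 (SE 0.22) in Clcn1-null. Egln3, an oxygen-sensing hydroxylase, fell by 1.07 (SE 0.16) and rose by 1.78 (SE 0.24), where a second probe set was not called in Clcn1-null (0.95). On the fatty acid list 3 genes moved this way. Slc27a1, a fatty acid transporter, was at 7.64, 7.96, 7.71, 7.91 and 7.61 in the Mbnl1-null mice against 8.22 to 8.76, and at 11.92, 11.90 and 11.08 in the Clcn1-null mice against 9.23 to 10.19. It fell by 0.66 (SE 0.12, adjusted p = 0.00418) and rose by 1.99 (SE 0.34, adjusted p = 0.0377). Lpl, the lipoprotein lipase, and Acadm, the medium-chain acyl-CoA dehydrogenase, were both named outside the rule. Lpl fell by 0.34 (SE 0.08) and rose by 0.48 (SE 0.08), and at a second probe set fell by 0.54 (adjusted p = 0.0201) and rose by 1.86 (adjusted p = 0.007). Acadm fell by 0.32 (SE 0.07) and rose by 0.57 (SE 0.09).

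Of 37 measured fatty acid genes, 1 rose and 7 fell in Mbnl1-null, against 7.94% and 8.15% of all genes. In Clcn1-null 5 rose and none fell, against 2.43% and 3.98%. The Mbnl1-null change was below the Clcn1-null change for 13 and above it for none, against 4.02% and 7.9% of all genes. The median change was -0.15 in Mbnl1-null and 0.40 in Clcn1-null. Plin5, a lipid droplet protein of oxidative fibres, fell by 1.48 (SE 0.38) in Mbnl1-null against 0.32 (SE 0.42), with the difference not called (adjusted p = 0.0729), and its Mbnl1-null call was lost without null mouse 3 (-1.36) or wild-type mouse 2 (-1.32). The mean log2 level of the list's genes was 12.67 to 12.90 in Clcn1-null against 12.28 to 12.51 in wild type. In Mbnl1-null it was 10.17 to 10.51 against 10.38 to 10.60. The adipocyte markers rose in the same 3 Clcn1-null mice, as given above, and their part in this list was not tested. Of 45 respiratory chain and citric acid cycle genes, 1 rose in Mbnl1-null, against 7.94% of all genes, and 2 rose in Clcn1-null, against 2.43%. None fell in either, and 37 of the 45 had a positive change in Clcn1-null, most of them not called. The Clcn1-null calls of Slc27a1 (1.88), Lpl (0.45) and Acadm (0.54) were lost under a median shift, and the Mbnl1-null call of Lpl without wild-type mouse 1 (-0.30).

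**Figure D4:**
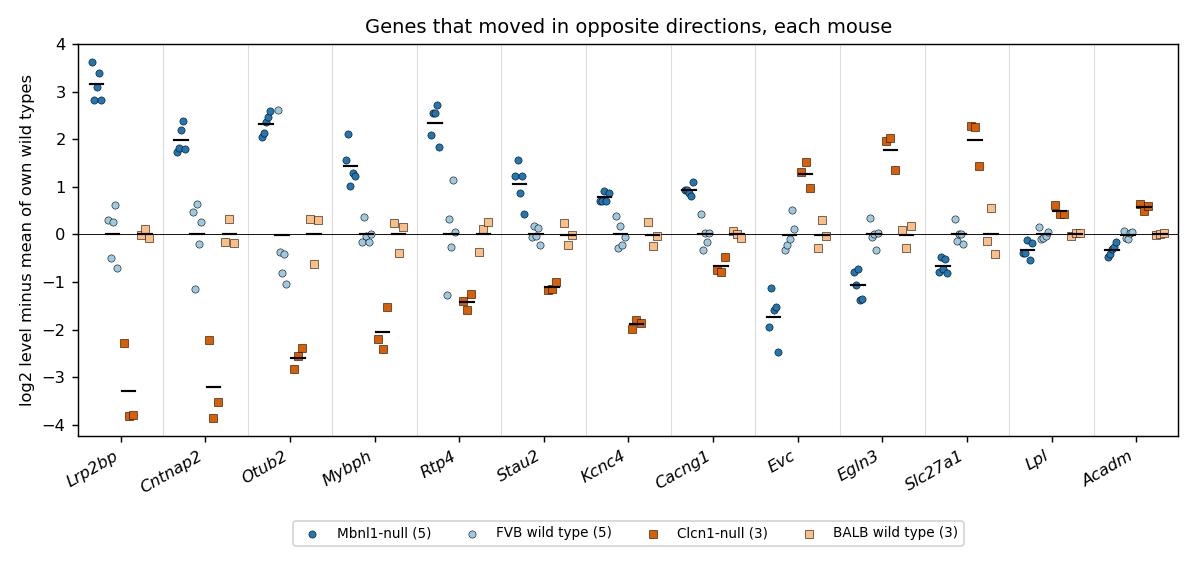
Log2 level of each mouse minus the mean of its own wild types (y axis) for 13 genes called in both knockouts with opposite signs; circles are experiment 3, squares experiment 2, and black bars are group means. From Lrp2bp to Cacng1 the Mbnl1-null means lie above 0 and the Clcn1-null means below, and from Evc to Acadm the order is turned.

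Of 26 measured genes of muscle stretch and mechanical stress, 6 rose and 2 fell in Mbnl1-null, against 7.94% and 8.15% of all genes. In Clcn1-null 7 rose and 1 fell, against 2.43% and 3.98%. The median changes were 0.27 in Mbnl1-null and 0.45 in Clcn1-null. Ankrd1, a stretch-induced titin partner, changed by 3.65 (SE 0.65, adjusted p = 0.00334) in Mbnl1-null and 1.82 (SE 0.58, adjusted p = 0.167) in Clcn1-null. Its relative Ankrd2 changed by 1.31 (SE 0.62, adjusted p = 0.177) and 2.23 (SE 0.24, adjusted p = 0.0127). Neither difference was called, so each of these genes passed in 1 model without being shown to differ. The same held for Mt1, a metallothionein, at 1.07 (adjusted p = 0.0525) and 2.93 (adjusted p = 0.0369, and 0.0545 without Clcn1-null mouse 3). Of the 32 measured transcripts that Mbnl1 is known to splice, 5 rose and 7 fell in Mbnl1-null, against 7.94% and 8.15% of all genes, and none rose and 2 fell in Clcn1-null, against 2.43% and 3.98%, so that the Clcn1-null count was near the share over all genes.

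**Figure D5:**
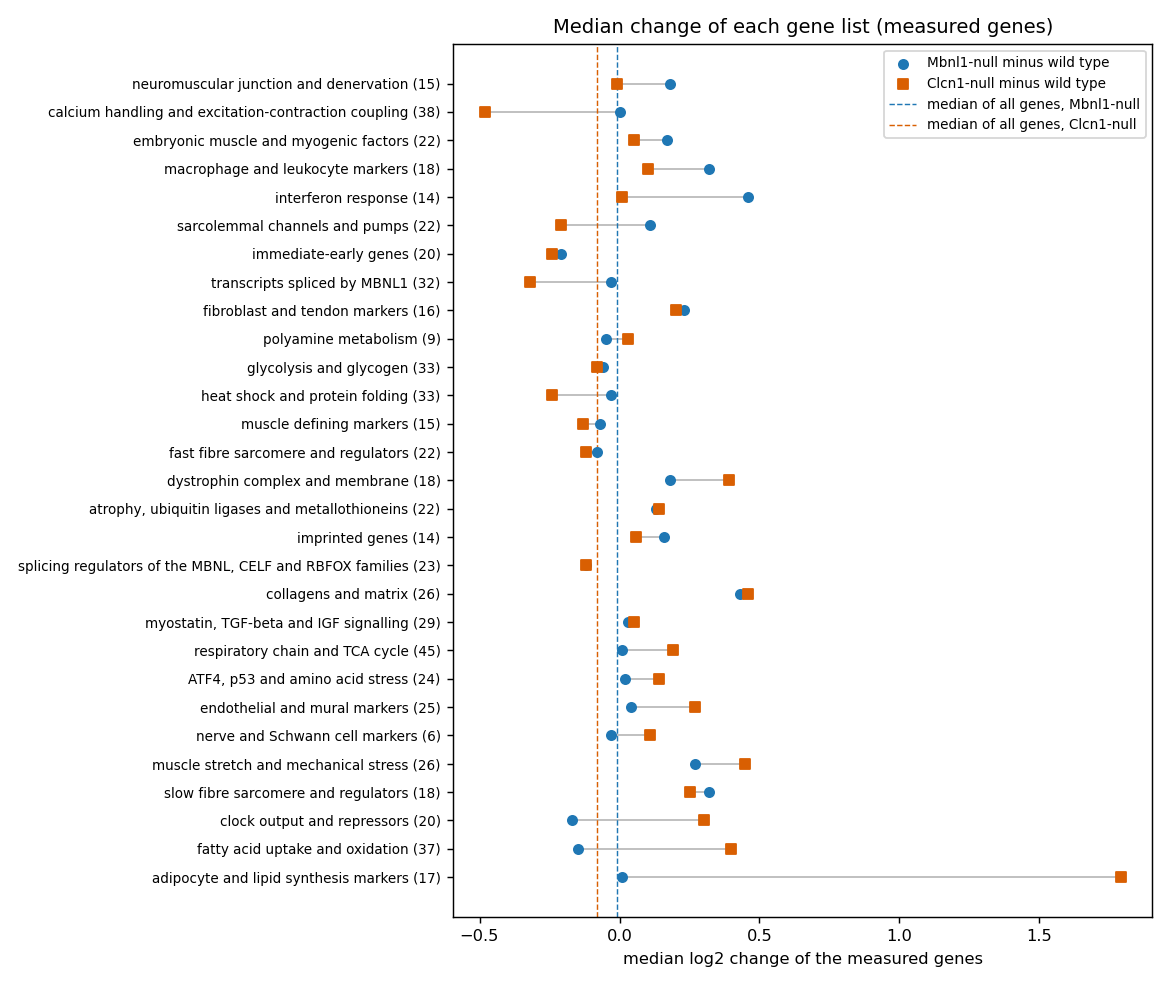
Median log2 change of the measured genes of each list (x axis; number measured in brackets) in Mbnl1-null (circles) and Clcn1-null (squares), ordered by the median difference; dashed lines are the medians of all 8884 genes, -0.01 and -0.08. The 2 medians lie farthest apart for the adipocyte list (0.01 against 1.79), and the fatty acid (-0.15 against 0.40) and calcium handling (0.00 against -0.48) lists separate in opposite directions.

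Some genes are read by several probe sets with differing values. A second Tln1 probe set changed by 0.28 in Mbnl1-null (adjusted p = 0.104) and rose by 1.17 in Clcn1-null (adjusted p = 0.0289). The one chosen by the rule rose by 2.91 in Mbnl1-null and changed by -0.48 in Clcn1-null, so that Tln1, the integrin adaptor talin, has no single class. Other Tpm3 probe sets changed by at most 0.44 in either model except 1 probe set, which changed by -3.73 and -3.35. The other tested probe sets of Nudt6 (0.19 and 0.09) and Zdhhc18 (0.31 and -0.26) were not called. For Atp2a2 another probe set fell in Mbnl1-null (-0.76) and changed by 0.08 in Clcn1-null. For Stau2 the others changed by 0.24 and 0.36 in Mbnl1-null and by -0.23 and 0.26 in Clcn1-null, and none was called. A second Igfbp5 probe set fell by 1.70 in Mbnl1-null and changed by -0.13 in Clcn1-null, with the difference called in the reverse direction of the first (-1.56, adjusted p = 0.00779).

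Genes near a targeted locus can keep alleles of another strain, so the neighbours were counted. Of 54 genes within 10 Mb of Mbnl1 and tested in Mbnl1-null, 6 were higher and 9 lower (27.8%), against 16.1% of all genes tested, and these include Kcnab1 and Postn. Of 102 genes within 10 Mb of Clcn1 and tested in Clcn1-null, 4 were higher and 3 lower (6.86%), against 4.78%, and these include Cntnap2. For the 2 loci exchanged, 18.8% of 69 neighbours of Clcn1 were called in Mbnl1-null and 11.6% of 69 neighbours of Mbnl1 in Clcn1-null, Kcnab1 and Postn among them. The part of neighbouring alleles in these changes was not tested.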

How the data were processed

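Quadriceps RNA was measured on Affymetrix mouse arrays, 1 array per mouse in experiment 3 and the pair 430A and 430B per mouse in experiment 2. The authors deposited linear intensity values per probe set. GCRMA is named in the submitters' processing notes, and its version is not given in the sources used here. The intensities were taken to log2 with no further scaling. The 430A and 430B values were joined by the mouse number in the titles. A probe set was tested if its log2 value reached 5 (intensity 32) on at least 5 arrays (experiment 3) or 3 mice (experiment 2). Each experiment was fitted alone in limma 3.58.1 (R 4.3.3; lmFit, eBayes with a trend), with Benjamini-Hochberg adjustment over all probe sets tested and a threshold of 0.05. The difference of the changes came from a fit of the 4 group means over the probe sets tested in both, with 95% intervals. That fit takes 1 spread per probe set for both experiments. The scripts were tested on simulated data.

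Genes were named by a rule: the 12 highest and 12 lowest called in both, by the smaller change, 10 with opposite signs, 8 in each direction called in 1 model only by the size of the difference, and from each list the called members with the largest changes, at most 3, with clone names passed over and names left out for length. Tnnt1, Lpl, Acadm, Cacng1, Adipoq, Neto2, Cdh4, Myl2, Myl3 and Mybpc1 were added outside it. The members, rule and lists were chosen with earlier results of these data known. Lists use 1 probe set per gene, the one with the highest mean level. A group under 32 on every array gives a fold only as a lower bound. Alternatives were other scalings, filters, spreads and thresholds, the replicate number as a block, and each mouse left out. Nothing in the labels says that mice with the same number belong together. The other experiments of the series were not used here.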

Additional observations from a re-analysis of the deposited data

Results flagged for a closer look

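In the groups of 5 mice of experiment 3, a mouse was picked out where its gap to the nearest of the others exceeded Dixon's 95% critical value. This happened in 18 of the 212 groups looked at, where chance alone picks out about 1 group in 20. Groups of 3 were not looked at. Of the 18, 6 were Mbnl1-null mouse 1, 4 were Mbnl1-null mouse 5 and 3 were wild-type mouse 1.

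Mbnl1-null mouse 1 was highest for Sln (14.37, the others 10.89 to 11.02), Cdkn1a (11.43, the others 9.79 to 10.24) and Igf2 (8.79, the others 7.73 to 7.99). The same mouse was lowest for Tbc1d1 (7.49, the others 9.26 to 9.96) and for both Meg3 probe sets (8.37 and 10.32). Wild-type mouse 1 was also lowest for 1 of these Meg3 probe sets (8.78), and highest for Otub2 (8.41, the others 4.75 to 5.44) and Fam107a (7.18).

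Mbnl1-null mouse 5 was lowest for Asns (4.63), Rps6kc1 (6.42) and Cebpa (5.67), and highest for Plin5 (9.44, the others 7.33 to 7.77). Mbnl1-null mouse 2 was lowest for Dkk3 (5.73), and Mbnl1-null mouse 3 was highest for Junos (7.51). Wild-type mouse 3 was lowest for Sh2b2 (4.51) and Ifih1 (5.20), and wild-type mouse 5 was highest for Car3 (6.22).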

How the results depend on the processing

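No called change of a named gene reversed its direction under any alternative run. The counts below are calls in Mbnl1-null, calls in Clcn1-null, called differences, and probe sets alike, opposite, in Mbnl1-null only and in Clcn1-null only. A median shift of the arrays gave 1504 Mbnl1-null calls, 1171 differences, 193 alike, 17 opposite and 219 in Mbnl1-null only. Without a filter on low values there were 1727 Mbnl1-null and 610 Clcn1-null calls, 158 alike, 16 opposite and 264 in Mbnl1-null only, and the correlation of the changes was 0.298. With 1 probe set per gene, which tests fewer features, the counts were 1455, 703, 1076 differences, 210 alike, 255 in Mbnl1-null only and 295 in Clcn1-null only. At an adjusted p under 0.01 they were 1159, 154, 703, 39 alike, 1 opposite, 148 and 75. Other counts stayed within 1.5 times, and the cause of these shifts was not tested.

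With the replicate number as a block there were 110 Clcn1-null calls, 58 alike, 2 opposite and 27 in Clcn1-null only, and 3310 Mbnl1-null calls. Same-numbered mice correlated in their deviations from the group means at 0.0229 to 0.398 in experiment 3 and -0.153 to 0.0945 in experiment 2, so the numbers were not taken to pair mice. Leaving out 1 mouse at a time gave 1813 to 2706 Mbnl1-null calls, 35 to 2273 Clcn1-null calls, 1135 to 2242 differences, 23 to 580 alike, 0 to 58 opposite, 275 to 562 in Mbnl1-null only, 8 to 809 in Clcn1-null only and a correlation of 0.343 to 0.387. Without a filter, 6 of 77 named Mbnl1-null changes, 17 of 77 Clcn1-null changes and 8 of 71 differences lost their call. With only 3 mice a group, experiment 2 limits the depth of every class that uses its calls.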
